A study of Nothobranchius furzeri and Iconisemion striatum and Callopanchax occidentalis with 18 samples.

Results

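The miR-15 and miR-16 family of killifish embryos is described here from the 9 of 291 listed mature miRNAs that carry a miR-15, miR-16 or fish miR-457 name: miR-15a-5p, miR-15a-3p, miR-15b-5p, miR-16a, miR-16b, miR-16c-5p, miR-16c-3p, miR-457a and miR-457b-3p. The rule used their names and no measured value. The study sequenced small RNAs from whole embryos of 8 killifish species, taken while somites (body segments) were forming, in 18 libraries. Annual killifish inhabit temporary ponds, where embryos survive the dry season in diapause, a reversible arrest of development. The labels give, for the annual Nothobranchius furzeri, 5 libraries of embryos in diapause: replicate 1 of strain MZM0403, replicates 2 and 3 of MZM0410, and replicates 4 and 5 of GRZ x MZZW. Diapause had lasted 2 weeks in replicate 3, 1 month in replicate 4 and 2 months in replicate 5, and no length is given for replicates 1 and 2. Callopanchax occidentalis and Nematolebias papilliferus, both annual, gave 1 library each of embryos in diapause. N. furzeri not in diapause gave 3 libraries, all of strain MZM0410. The species labelled non-annual, none in diapause, were Aphyosemion striatum with 4 libraries (its organism label is Iconisemion striatum) and Aplocheilus lineatus, Epiplatys dageti monroviae, Austrofundulus leohoignei and Rivulus cylindraceus with 1 library each. A. leohoignei is labelled non-annual although its genus is known for annual fish.

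A miRNA guides the repression of messenger RNAs that pair with its seed, a short stretch near its 5′ end. The 5′ arms of the miR-15, miR-16 and miR-457 hairpins share their seed, so they are expected to repress overlapping sets of messages. In mammals these miRNAs repress cyclins, cyclin-dependent kinases and BCL2, a protein that blocks cell death, and they are known as brakes on cell division that are lost in chronic lymphocytic leukaemia. In frog embryos they limit the receptor of Nodal, a signal that patterns the early body axis. The 3′ arms (miR-15a-3p, miR-16c-3p and miR-457b-3p) come from the same hairpins, carry other seeds and are usually discarded. miR-16a, miR-16b and miR-457a are listed with no arm in their names.

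A library held at least 371908 miRNA counts (R. cylindraceus) and at most 4177400 (replicate 1 of N. furzeri not in diapause). The counts were between 1.43% (E. dageti monroviae) and 77.3% (N. furzeri diapause replicate 4) of a library's reads of 18 to 33 nt. The abundant miR-10 and miR-196 took 80.8% ± 10.1 of the counts in N. furzeri in diapause (SD, n = 5), 74.0% ± 9.49 in N. furzeri not in diapause (n = 3) and 38.0% ± 17.03 in A. striatum (n = 4), where early embryonic miR-430 took between 33.9% and 64.1%. The library names place 8 libraries in lane 1, 9 in pool 3 and 1 in pool 2 of sequencing. These lane and pool classes are called runs below, although no label or name states a sequencing run. All 3 libraries of N. furzeri not in diapause were in pool 3, as were diapause replicates 3 and 4 and A. striatum replicates 1 to 3. Muscle miRNAs (miR-1, miR-133, miR-206) and neural miRNAs (miR-9, miR-124) had counts in all 18 libraries. Of 2 erythroid miRNAs, miR-451 had counts in 9 libraries, at no more than 0.00284% of a library. The other, miR-144, had counts in 16 libraries, at up to 0.0576%, in E. dageti monroviae. It averaged 0.00130% ± 0.00234 in N. furzeri in diapause, 0.00124% ± 0.000748 in N. furzeri not in diapause and 0.0143% ± 0.0166 in A. striatum (SD). In whole embryos, fewer cells with a miRNA and less of it per cell cannot be told apart.

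Nearly all of the family's counts came from 4 members. Over the 18 libraries miR-16b held 23829 counts (57.2% of the family), miR-16a 11175 (26.8%), miR-15b-5p 5314 (12.8%) and miR-15a-5p 1290 (3.10%), and each had counts in every library. These 4 passed the filter on low counts in every comparison, and the other 5 passed it in none. miR-16c-3p had 20 counts, spread over 10 libraries with at most 4 in any of them, and miR-16c-5p had 11 in 6 libraries, 5 of them in A. leohoignei. miR-15a-3p had 6 counts in 5 libraries, 3 of these libraries of A. striatum and 2 of N. furzeri not in diapause. The fish members miR-457a and miR-457b-3p had 1 count each, both in A. striatum replicate 2. A count of 0 allows up to 3 counts, which is between 0.718 and 8.07 RPM (counts scaled to the library's total) depending on the depth. A member with a count of 0 may therefore have been present below that level. Reads of such near-identical sequences as miR-16a, miR-16b and miR-16c, or miR-15a and miR-15b, may have been shared or split in counting, and single members are uncertain to that extent.

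The arms of miR-15a were unequal in every library. The 5′ arm had more counts than the 3′ arm in 18 of 18 libraries, with 1290 and 6 counts in sum and a median log2 ratio of 5.66 (SD 1.01, 1 count added to each arm). For miR-16c, with 11 and 20 counts in sum, the 3′ arm was ahead in 8 libraries, the 5′ arm in 3, and 7 had equal counts. Among the equal ones, N. furzeri diapause replicates 3 and 4, A. striatum replicates 3 and 4, A. lineatus and R. cylindraceus had no count of either arm. The tally therefore says little about the balance of these arms.

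**Figure D1:**
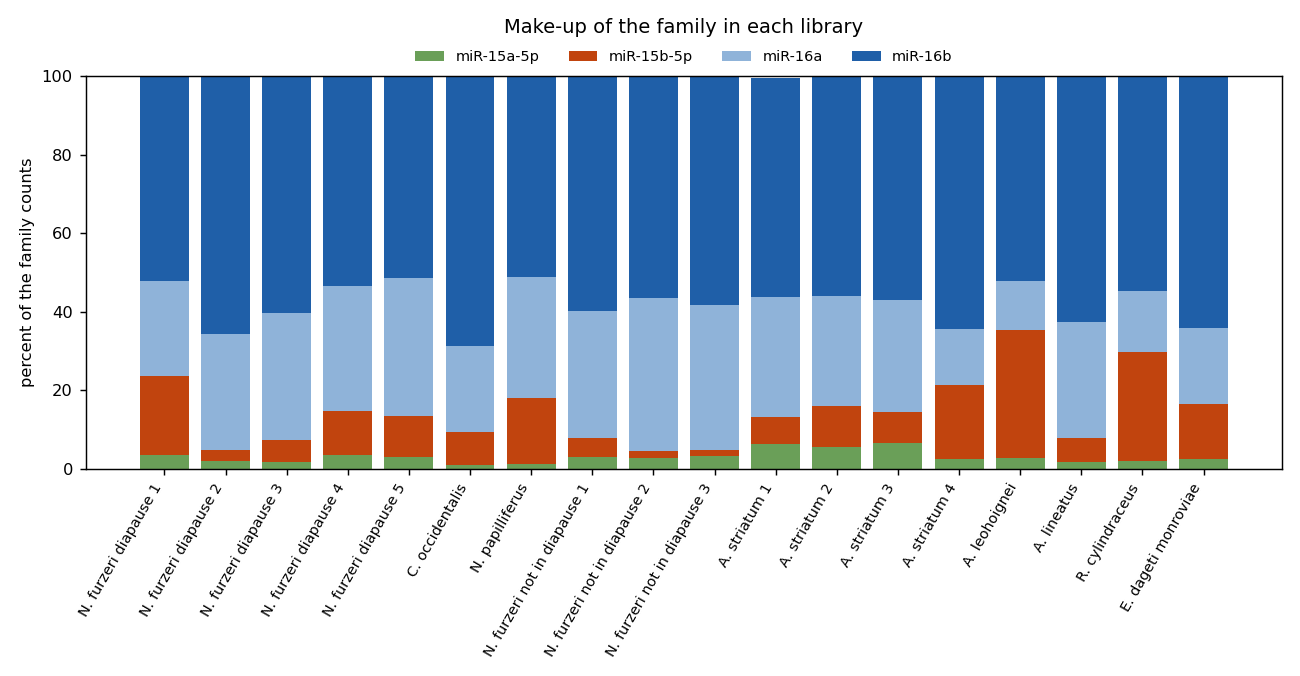
Share of the family's counts held by miR-15a-5p, miR-15b-5p, miR-16a and miR-16b (stacked bars, vertical axis in percent of the family's counts) in each of the 18 libraries (horizontal axis). miR-16b held between 51.0% and 68.7% in every library, while the share of miR-15b-5p ran between 1.56% and 32.7%.

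miR-16b was the leading member everywhere, as the plot of the family's make-up shows. It held 56.6% ± 6.18 of the family's counts in N. furzeri in diapause (SD, n = 5), 58.1% ± 1.70 in N. furzeri not in diapause (n = 3) and 58.2% ± 4.08 in A. striatum (n = 4). The single libraries of the other species ranged between 51.0% (N. papilliferus) and 68.7% (C. occidentalis). miR-15b-5p was the most uneven member. Its share was 9.996% ± 6.57 in N. furzeri in diapause, 2.70% ± 1.95 in N. furzeri not in diapause and 11.1% ± 5.49 in A. striatum. In A. leohoignei it reached 32.7% and in R. cylindraceus 27.9%, ahead of miR-16a, which held 12.5% and 15.4% there.

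**Figure D2:**
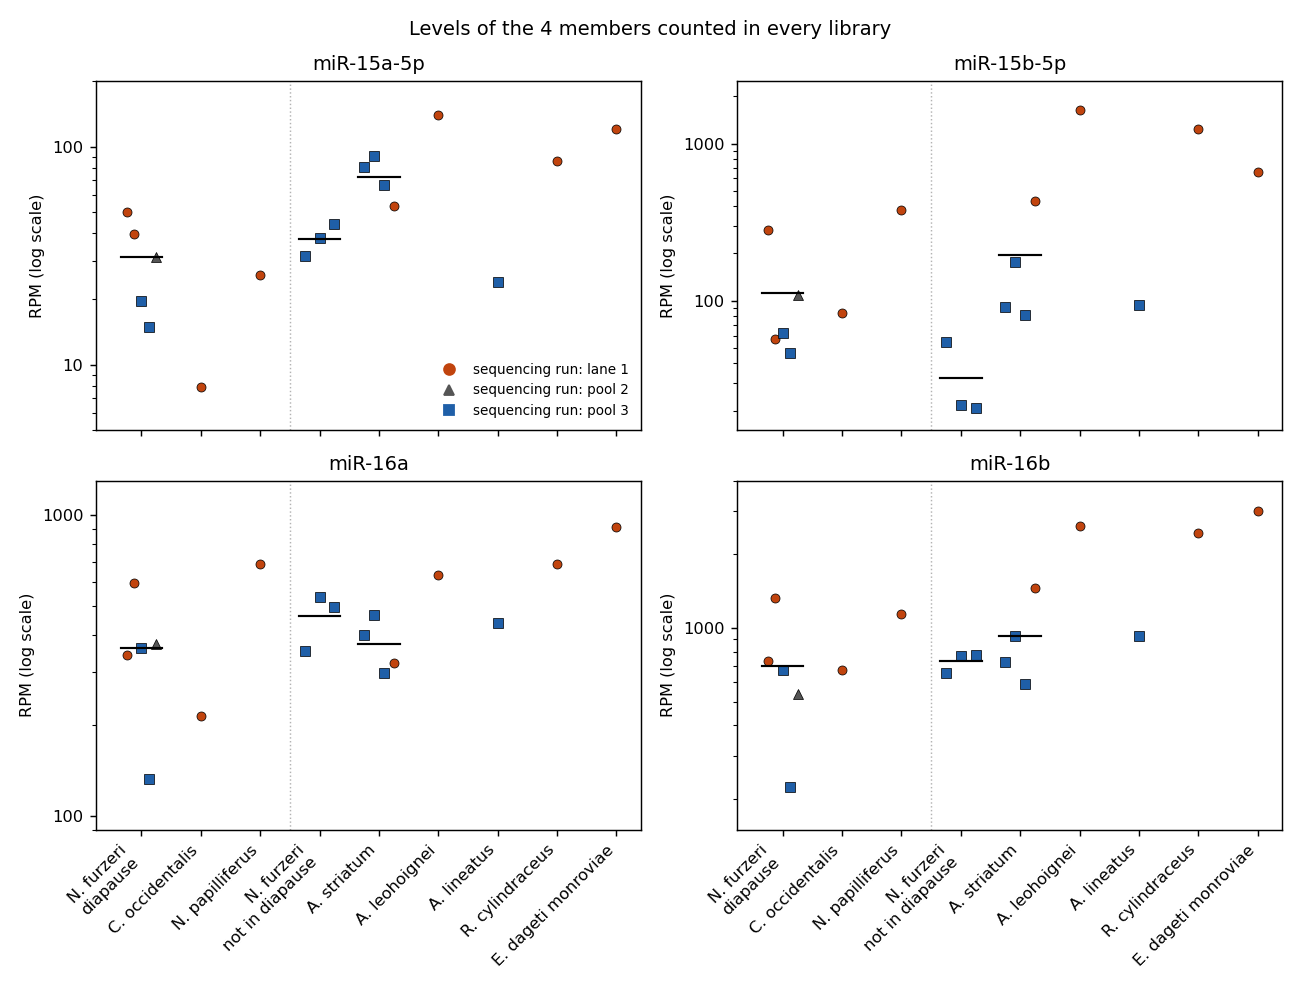
RPM on a log axis of miR-15a-5p, miR-15b-5p, miR-16a and miR-16b by group, a point for each library with colour and shape for the lane or pool in its name (marked as sequencing run), a short line for the mean of groups with replicates, and a dotted line between embryos in diapause (left) and not in diapause. miR-15b-5p was lowest in N. furzeri not in diapause, between 20.8 and 54.3 RPM, and highest in A. leohoignei, at 1645 RPM.

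Levels are given first as RPM, the deposited scale, which is the share of a library's miRNA counts. miR-16b averaged 699 ± 402 RPM in N. furzeri in diapause, 735 ± 67.2 RPM in N. furzeri not in diapause and 924 ± 379 RPM in A. striatum (SD, n = 5, 3 and 4). C. occidentalis had 675 RPM (95% Wilson interval 619 to 736, counting error only) and N. papilliferus 1137 RPM (1070.4 to 1208). A. lineatus had 929 RPM (875 to 986), A. leohoignei 2618 RPM (2524 to 2716), R. cylindraceus 2439 RPM (2285 to 2603) and E. dageti monroviae 3015 RPM (2870.2 to 3167). The last 3 stood above every other library. Counts were 28.5% of the reads of 18 to 33 nt in A. leohoignei, 3.78% in R. cylindraceus and 1.43% in E. dageti monroviae. Within N. furzeri in diapause, replicate 2 (3.02% counted) had the most miR-16b, 1326 RPM, and replicate 4 (77.3%) the least, 223 RPM. The part of this share of counted reads was not tested. The means of the 3 replicated groups differed by less than the SD in N. furzeri in diapause, whose libraries, between 223 and 1326 RPM, enclosed C. occidentalis, N. papilliferus and A. lineatus.

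The order of the species was another when the composition of the libraries was corrected for. Group values on the corrected scale, here and for the other members, average replicates as log2 CPM and are turned back, unlike the plain RPM means. With TMM scaling over all 18 libraries (factors between 0.372 and 2.98), which lines up the bulk of the miRNAs, miR-16b stood at 675 CPM in N. furzeri in diapause, 1109 in C. occidentalis and 1074 in N. papilliferus. It stood at 966 CPM in N. furzeri not in diapause, 887 in A. striatum, 879 in A. leohoignei, 1694 in A. lineatus, 1499 in R. cylindraceus and 1185 in E. dageti monroviae. A. leohoignei was thus next to last on this scale and next to first in RPM. Over these 9 group values the SD of log2 CPM was 0.41 for miR-16b and 0.58 for miR-16a, which ranked 101 and 98 of 102 miRNAs averaging at least 50 CPM, from most to least variable, with a median SD of 1.22. In RPM their SDs were 0.91 and 0.65, ranks 90 and 101. On either scale the miR-16 levels were among the less variable of these 102 miRNAs, whose abundances differ widely.

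miR-16a followed miR-16b at a lower level. It averaged 360.5 ± 164 RPM in N. furzeri in diapause, 461 ± 94.6 RPM in N. furzeri not in diapause and 371 ± 75.8 RPM in A. striatum (SD, n = 5, 3 and 4). In RPM C. occidentalis was the lowest group with 215 RPM (Wilson interval 184 to 250.5), and N. papilliferus had 689 RPM (637 to 744). The lowest single library was N. furzeri diapause replicate 4, with 133 RPM. Among the other single libraries it had 439 RPM in A. lineatus (402 to 478), 629 in A. leohoignei (584 to 678), 688 in R. cylindraceus (609 to 778) and 912 in E. dageti monroviae (833 to 997). N. papilliferus, R. cylindraceus and A. leohoignei had overlapping intervals. With TMM scaling A. leohoignei was lowest, at 211 CPM, C. occidentalis had 353 CPM beside 364 CPM in N. furzeri in diapause and 372 CPM in A. striatum, and A. lineatus was highest, at 799.9 CPM.

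miR-15b-5p had the widest range, 79.0-fold in RPM over the 18 libraries against 13.5-fold for miR-16b. It averaged 112 ± 98.5 RPM in N. furzeri in diapause, 32.3 ± 19.1 RPM in N. furzeri not in diapause and 194.7 ± 162 RPM in A. striatum. C. occidentalis had 83.0 RPM (Wilson interval 64.9 to 106.2) and N. papilliferus 377 RPM (339 to 418). A. lineatus had 93.4 RPM (77.4 to 113), E. dageti monroviae 662 (596 to 735), R. cylindraceus 1242 (1134 to 1361) and A. leohoignei 1645 (1571 to 1723). A. leohoignei, R. cylindraceus and E. dageti monroviae led in that order in RPM, apart from each other by more than counting error. With TMM scaling the order was another, with 764 CPM in R. cylindraceus, 552 in A. leohoignei, 356 in N. papilliferus and 260.0 in E. dageti monroviae. In RPM, N. furzeri in diapause, A. lineatus and C. occidentalis could not be ordered within the spread of the first. The SD of log2 group values was 1.31 with TMM scaling (rank 46 of 102) and 1.98 in RPM (rank 22).

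miR-15a-5p was the scarcest of the 4 in sum. It averaged 31.1 ± 14.5 RPM in N. furzeri in diapause, 37.9 ± 6.20 RPM in N. furzeri not in diapause and 72.9 ± 16.4 RPM in A. striatum. C. occidentalis had 7.91 RPM (6 counts, Wilson interval 3.62 to 17.3) and N. papilliferus 25.9 RPM (17.4 to 38.6). A. lineatus had 23.99 RPM (16.6 to 34.7), R. cylindraceus 86.0 (61.0 to 121), E. dageti monroviae 120.1 (93.9 to 154) and A. leohoignei 139 (119 to 163). In RPM the last 3 and A. striatum formed the upper end, and the intervals of R. cylindraceus, E. dageti monroviae and A. leohoignei overlapped. With TMM scaling A. striatum was highest, at 72.9 CPM, and N. furzeri not in diapause, A. lineatus and those 3 species lay between 43.7 and 52.9 CPM.

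**Figure D3:**
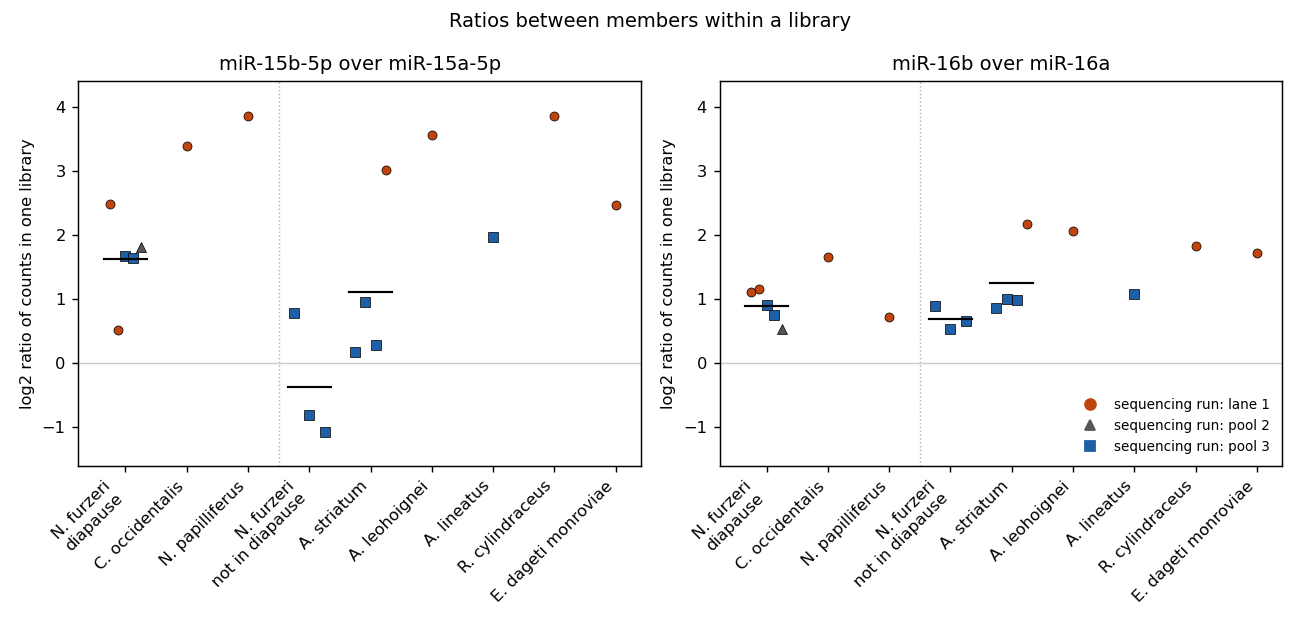
Log2 ratios of counts within a library, miR-15b-5p over miR-15a-5p (left) and miR-16b over miR-16a (right), by group, with points, mean lines, colours and dotted line as in the plot of levels. miR-16b exceeded miR-16a in all 18 libraries, and the miR-15 ratio was below 0 in 2 libraries of N. furzeri not in diapause.

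Ratios between members of a library do not depend on scaling. miR-16b exceeded miR-16a in 18 of 18 libraries, by between 1.44 and 4.49 times, with an SD of 0.52 on the log2 scale. The ratio was 1.45 to 2.23 in N. furzeri in diapause, 1.44 to 1.86 in N. furzeri not in diapause, and 1.82, 1.99, 1.98 and 4.49 in A. striatum replicates 1 to 4. A. striatum replicate 4 thus stood apart from the other 3, and it was the library of its species in lane 1. Over all species the ratio was 1.65 to 4.49 in lane 1 (median 3.22, n = 8) and 1.44 to 2.12 in pool 3 (median 1.86, n = 9). Since most species were in 1 run, species and run cannot be told apart over all species. Within N. furzeri in diapause the ratio was 2.15 to 2.23 in lane 1, 1.69 to 1.87 in pool 3 and 1.45 in pool 2. Strain differed among these libraries as well, and the part of the run was not tested.

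The ratio of miR-15b-5p to miR-15a-5p moved far more, with an SD of 1.53 on the log2 scale over the 18 libraries. It was 5.61, 1.43, 3.18, 3.13 and 3.51 in N. furzeri diapause replicates 1 to 5, against 1.72, 0.571 and 0.473 in N. furzeri not in diapause. The groups overlapped through diapause replicate 2. The mean log2 ratio was 1.63 ± 0.71 in diapause and -0.37 ± 1.01 not in diapause (SD), a difference of 2.00. Leaving out each library gave between 1.64 and 2.57, pool 3 alone gave 2.03, and strain MZM0410 alone gave 1.46. No p is given for this ratio, which was chosen with the members' values known.

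In A. striatum the ratio of miR-15b-5p to miR-15a-5p was 1.13, 1.94 and 1.22 in the 3 pool 3 libraries and 8.08 in the lane 1 library. N. furzeri not in diapause minus A. striatum gave a difference of -1.48 in mean log2 ratio, and -0.84 within pool 3. N. furzeri in diapause minus A. striatum gave 0.52, and 1.18 within pool 3. The annual C. occidentalis and N. papilliferus had ratios of 10.5 and 14.5, A. leohoignei had 11.8, R. cylindraceus 14.4 and E. dageti monroviae 5.51, all in lane 1. A. lineatus, in pool 3, had 3.89. High ratios therefore occurred in both annual and non-annual species. The ratio was 1.43 to 14.5 in lane 1 (median 9.29) and 0.473 to 3.89 in pool 3 (median 1.72). Within N. furzeri in diapause the lane 1 libraries had 1.43 and 5.61, on both sides of the 3.13 to 3.18 in pool 3. Over all species, species and run cannot be told apart for this ratio either.

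The question of the first comparison was whether the family differs between N. furzeri embryos in diapause and not in diapause. miR-15b-5p had 282, 57.0, 62.3, 46.5 and 109.6 RPM in diapause replicates 1 to 5, against 54.3, 21.8 and 20.8 RPM in replicates 1 to 3 not in diapause. The groups overlapped, since diapause replicate 4 was below replicate 1 not in diapause, and in RPM diapause replicate 1, the MZM0403 library, was far above the others. With TMM scaling over all 18 libraries it no longer stood apart, at 160.3 CPM beside 150.3 CPM in replicate 5 and 125 CPM in replicate 4. With TMM scaling the level was 97.7 ± 44.3 CPM in diapause and 31.9 ± 19.4 CPM not in diapause (SD, n = 5 and 3). The estimate on the log2 scale was 1.61 (SE 0.55), with an adjusted p of 0.224 by edgeR's quasi-likelihood test with Benjamini-Hochberg adjustment over 161 miRNAs. It ranked 10 of 161 by p, and its unadjusted p was 0.0158, where 14.9% of all miRNAs (24) were under the threshold of 0.05. The difference did not pass the test.

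The other 3 members did not pass the test either. miR-16b had 736, 1326, 672, 223 and 539 RPM in diapause and 657, 771 and 776 RPM not in diapause. Its log2 fold change was -0.17 (SE 0.35, adjusted p = 0.781, edgeR). miR-16a had 342, 596, 360.2, 133 and 372 RPM in diapause and 354, 534 and 494 RPM not in diapause, and gave a log2 value of -0.39 for diapause against not in diapause (SE 0.35, adjusted p = 0.651, edgeR). In RPM the diapause values of both enclosed the others, and diapause replicate 4, the library with the highest share of miR-10 and miR-196 (92.6%), was the lowest. With TMM scaling within the comparison miR-16a ran between 187 and 434 CPM in diapause and between 353 and 546 CPM not in diapause, so that the groups overlapped without one enclosing the other. With TMM scaling over all 18 libraries, diapause replicate 1 was the lowest N. furzeri library for both, at 194 CPM of miR-16a and 418 CPM of miR-16b. miR-15a-5p had 50.3, 39.7, 19.6, 14.9 and 31.2 RPM in diapause and 31.6, 38.1 and 44.0 RPM not in diapause (log2 fold change -0.35, SE 0.33, adjusted p = 0.661, edgeR).

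In all, 0 of the 4 members were called between diapause and not in diapause, where 0% of the 161 miRNAs were, and 0 of 4 had groups that did not overlap, against 8.7% of all. DESeq2's Wald test called 4 of the 161 and none of the members. The median log2 fold change was -0.26 over the 4 members and 0.14 over all. Within strain MZM0410, with diapause replicates 2 and 3 only, the value for miR-15b-5p was 0.72 (SE 0.56, adjusted p = 0.887, edgeR). Within pool 3, with diapause replicates 3 and 4 only, it was 1.48 (SE 0.54, adjusted p = 0.232, edgeR). With the run as a covariate it was 1.40. The direction for miR-16b turned within MZM0410, to 0.17. Strains MZM0403 and GRZ x MZZW occurred only in diapause, and the libraries of 1 month and 2 months were both GRZ x MZZW. Strain was thus partly confounded with diapause and with its length. The part of the length of diapause was not tested.

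The next comparison set N. furzeri not in diapause against A. striatum, an annual and a non-annual species, neither in diapause. It shares its 3 N. furzeri libraries with the first comparison. With a single species on each side, species and life style cannot be told apart. miR-15b-5p was lower in N. furzeri. It had 54.3, 21.8 and 20.8 RPM there, against 90.6, 177, 81.7 and 429.8 RPM in A. striatum replicates 1 to 4. The groups did not overlap, which held for 19.7% of all 157 miRNAs in this direction. The level was 36.1 ± 24.1 CPM in N. furzeri and 151 ± 53.4 CPM in A. striatum with TMM scaling (SD, n = 3 and 4). The log2 fold change was -2.06 (SE 0.55, adjusted p = 0.0194, edgeR). The call was lost with library totals alone (adjusted p = 0.0546), without N. furzeri replicate 2 (adjusted p = 0.137) and without replicate 3 (adjusted p = 0.123), while the direction stayed. Within pool 3 the value was -1.86 (SE 0.48, adjusted p = 0.0242).

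Neither miR-16 member passed the test between these groups. miR-16b had 657, 771 and 776 RPM in N. furzeri not in diapause, against 728, 927, 589.5 and 1453 RPM in A. striatum. The log2 fold change was -0.07 (SE 0.36, adjusted p = 0.902, edgeR). Its sign turned under DESeq2's size factors, with no filter, with DESeq2 and in fits that left out a library. miR-16a had 354, 534 and 494 RPM against 399, 465, 298 and 323 RPM, and its log2 fold change was 0.40 (SE 0.44, adjusted p = 0.544, edgeR). Both overlapped between the species. miR-15a-5p had 31.6, 38.1 and 44.0 RPM in N. furzeri, against 80.4, 91.0, 66.8 and 53.2 RPM in A. striatum, and the log2 fold change was -0.90 (SE 0.53, adjusted p = 0.211, edgeR). Its RPM values did not overlap, but its TMM-scaled values did, through A. striatum replicate 4. Without that lane 1 library, which leaves pool 3 alone, the value was -1.24 (SE 0.35, adjusted p = 0.0326).

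Of the 4 members, 1 was called here, against 21.7% of the 157 miRNAs (34) and 14% lower, so the count of calls was near that of the whole table. The members' median log2 fold change was -0.49, and that of all miRNAs -0.0042. With library totals alone the median of all moved to -0.33, so values on that scale are to be read against it. miR-10 and miR-196 took a larger share and miR-430 a smaller share in N. furzeri than in A. striatum. Their part in the members' values was not tested.

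N. furzeri in diapause against A. striatum shares libraries with both comparisons above, so its values are not independent of theirs. Species, life style and diapause differ together between these groups and cannot be told apart. miR-15a-5p was lower in N. furzeri in diapause, with 50.3, 39.7, 19.6, 14.9 and 31.2 RPM, against 80.4, 91.0, 66.8 and 53.2 RPM in A. striatum. The level was 31.1 ± 7.10 CPM in diapause and 70.7 ± 28.4 CPM in A. striatum with TMM scaling (SD, n = 5 and 4), and these values overlapped through A. striatum replicate 4, while the RPM values did not. The log2 fold change was -1.18 (SE 0.41, adjusted p = 0.0431, edgeR). The call ended in 8 of the 9 fits that left out a library (adjusted p between 0.0114 and 0.123), the exception being the fit without A. striatum replicate 4, and also with library totals (0.178) and with no filter (0.111). Within pool 3 it was -1.53 (SE 0.48, adjusted p = 0.0421).

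The other members did not pass the test against A. striatum. For miR-15b-5p the log2 fold change of N. furzeri in diapause was -0.50 (SE 0.49, adjusted p = 0.437, edgeR), beside 1.61 for diapause against not in diapause and -2.06 for not in diapause against A. striatum. miR-16b gave -0.26 (SE 0.31, adjusted p = 0.525, edgeR) and miR-16a 0.05 (SE 0.37, adjusted p = 0.944, edgeR), whose sign turned under several scalings and within pool 3 (-0.16). Of the 4 members 1 was called, against 37.3% of the 158 miRNAs (59) and 22.8% lower, and 0 had groups that did not overlap, against 31% of all. The median log2 fold change was -0.38 over the members and 0.22 over all.

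**Figure D4:**
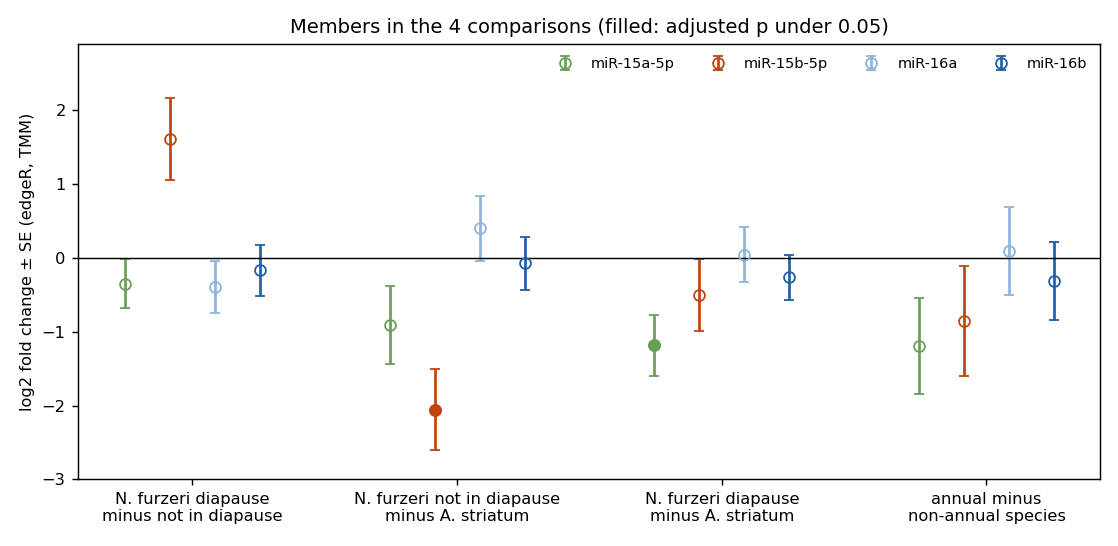
Log2 fold change with SE (vertical axis, edgeR with TMM scaling) of the 4 testable members in the 4 comparisons (horizontal axis), with filled points for an adjusted p under 0.05. The filled points are miR-15b-5p for N. furzeri not in diapause against A. striatum, at -2.06, and miR-15a-5p for N. furzeri in diapause against A. striatum, at -1.18.

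The last comparison set 3 annual species in diapause against 5 non-annual species, with counts summed per species. Diapause and life style cannot be told apart in it, and it shares libraries with the others. miR-15a-5p had 24.6 RPM in N. furzeri, 7.91 in C. occidentalis and 25.9 in N. papilliferus, against 78.7 in A. striatum, 23.99 in A. lineatus, 86.0 in R. cylindraceus, 120.1 in E. dageti monroviae and 139 in A. leohoignei. In RPM A. lineatus lay among the annual species. With TMM scaling the groups did not overlap, at 16.8 to 34.5 CPM in annual and 49.8 to 90.7 CPM in non-annual species, which, in this direction, held for 3.47% of all 173 miRNAs. The log2 fold change was -1.19 (SE 0.65, adjusted p = 0.424, edgeR) and did not pass the test.

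miR-15b-5p had 92.4 RPM in N. furzeri, 83.0 in C. occidentalis and 377 in N. papilliferus, against 170 in A. striatum, 93.4 in A. lineatus, 662 in E. dageti monroviae, 1242 in R. cylindraceus and 1645 in A. leohoignei. The groups overlapped, and the log2 fold change was -0.85 (SE 0.75, adjusted p = 0.544, edgeR). It ran between -1.54 and -0.53 with a species left out and was -2.05 with library totals, with none of these called. miR-16b gave -0.31 (SE 0.53, adjusted p = 0.767) and miR-16a 0.10 (SE 0.60, adjusted p = 0.945) in the same edgeR fit. With A. leohoignei counted as annual the values were -0.999 for miR-15a-5p, -0.36 for miR-15b-5p, -0.54 for miR-16b and -0.31 for miR-16a, a turned sign for the last. edgeR called 0 of the 4 members and 0% of the 173 miRNAs, 21 of which had an unadjusted p under 0.05. DESeq2 called 8 of the 173 and no member.

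The size of the difference between species depended on the scale. Over all miRNAs the median log2 fold change was -0.06 with TMM scaling and -1.19 with library totals. miR-10 and miR-196 together took at least 70.3% of each library of the annual species in diapause and at most 76.1% of each library of the non-annual species, and their part was not tested. The whole family took 0.137% ± 0.0741 of the counts in annual and 0.344% ± 0.178 in non-annual species (SD, n = 3 and 5). With the 10 most abundant miRNAs left out of the totals these shares were 2.58% ± 0.833 and 3.16% ± 0.929. Of all reads of 18 to 33 nt they were 0.0319% ± 0.0204 and 0.0469% ± 0.0557. Among the replicated groups the family took 0.120% ± 0.0583 in N. furzeri in diapause, 0.127% ± 0.0147 in N. furzeri not in diapause and 0.157% ± 0.0530 in A. striatum, and these means differed by less than the SD in N. furzeri in diapause.

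miR-103 and miR-107 have a seed that overlaps the family's with a shift, and are known as regulators of metabolism and the cell cycle. Of the 4 listed, miR-103 (587 RPM on average over the 18 libraries) and miR-107a-3p (254 RPM) passed the filter. miR-107a-3p was lower in N. furzeri in diapause, at 82.8 ± 9.26 CPM, than in A. striatum, at 243 ± 32.1 CPM (log2 fold change -1.56, SE 0.31, adjusted p = 0.00308, edgeR). For N. furzeri not in diapause against A. striatum it gave -0.96 (SE 0.41, adjusted p = 0.117). miR-103 did not pass in either, with 0.36 (SE 0.30, adjusted p = 0.376) for diapause and 0.71 (SE 0.40, adjusted p = 0.199) for not in diapause. Neither was called between diapause and not in diapause, or between annual and non-annual species.

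Other miRNAs known to restrain the cell cycle were the let-7 members, miR-34 and miR-26, 17 in all. Between diapause and not in diapause 0 of 10 tested were called, with a median log2 fold change of 0.43 against 0.14 over all, and the most abundant, miR-26a-5p and miR-26b, gave 0.77 (SE 0.35) and 0.25 (SE 0.32). For N. furzeri not in diapause against A. striatum 4 of 11 were lower, against 14% of all miRNAs, and none higher, with a median of -0.91: let-7g (-2.15, SE 0.49), let-7i (-3.57, SE 0.74), let-7j (-2.73, SE 0.75) and miR-34a (-3.23, SE 0.73), the last a target of p53 in mammals, with adjusted p between 0.00975 and 0.0219 (edgeR). For N. furzeri in diapause against A. striatum 3 of 10 were lower, near the 22.8% of all miRNAs, namely let-7i (-2.71, SE 0.67), let-7j (-2.15, SE 0.75) and miR-34a (-3.14, SE 0.82), with adjusted p between 0.0114 and 0.0433 (edgeR). There, 2 were higher, against 14.6% of all miRNAs higher, namely miR-26a-5p (1.06, SE 0.35, 7058 ± 2102 CPM in diapause and 3374 ± 1135 CPM in A. striatum) and miR-26b (0.98, SE 0.33), with adjusted p of 0.0374 and 0.0394 (edgeR). The median was -0.82. In both comparisons let-7i, let-7j and miR-34a were scarce in N. furzeri. They averaged between 1.74 and 9.85 CPM in diapause, against 13.9 to 65.8 CPM in A. striatum. Not in diapause they averaged between 1.65 and 5.85 CPM, against 14.6 to 66.5 CPM. The more abundant let-7a was called in neither, with -0.15 (SE 0.72) in diapause and -0.91 (SE 0.51) not in diapause.

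The miR-17-92 type clusters, known to drive proliferation, held 24 listed miRNAs. The list holds both arms of several hairpins, and the arms carry different seeds. Between diapause and not in diapause 0 of 17 tested were called, with a median log2 fold change of -0.21. For N. furzeri not in diapause against A. striatum 4 of 20 were lower, near the 14% of all miRNAs, and none higher (median -0.37). All 4 are miR-19 members. They were miR-19c-3p (-2.31), miR-19a-5p (-2.98), miR-19d-5p (-1.81) and miR-19b-5p (-4.57), with adjusted p between 0.000418 and 0.0473 (edgeR). The more abundant miR-19b-3p (0.10), miR-19a-3p (0.17) and miR-19d-3p (-0.47) were not called. For N. furzeri in diapause against A. striatum 7 of 20 were lower, against 22.8% of all miRNAs, and none higher (median -0.61), including miR-19b-5p (-5.01, SE 0.51), miR-92a-5p (-2.48, SE 0.43) and miR-20a-5p (-0.99, SE 0.35). The other 4 were miR-17a-2-3p (-3.08), miR-18b-3p (-2.58), miR-19a-5p (-3.19) and miR-19d-5p (-2.78), and adjusted p ran between 0.000123 and 0.0467 (edgeR). These 4 and miR-19b-5p averaged between 1.75 and 5.59 CPM in diapause and between 13.9 and 81.6 CPM in A. striatum, highest for miR-19b-5p. The more abundant arms miR-19b-3p (1.18, SE 0.44), miR-19d-3p (1.02, SE 0.49) and miR-19a-3p (0.91, SE 0.47) were not called there. Neither were miR-17a-5p (-0.89, SE 0.51) and miR-20b-5p (-0.65, SE 0.50). The abundant miR-92a-3p and miR-25-3p were not called in any of the 4 comparisons and gave -0.0069 and -0.21 between diapause and not in diapause. Between annual and non-annual species 0 of 19 of these and 0 of 10 of the restraining miRNAs were called, with medians of -0.81 and 0.43 against -0.06 over all.

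Over the 9 group values, the miRNA outside the family most like miR-16b was miR-222a-3p (Pearson r of log2 CPM 0.67), followed by miR-1 (0.57) and miR-181a-2-3p (0.50), of 99 averaging at least 50 CPM. miR-16a was most like miR-130b (0.79), miR-184 (0.72) and miR-25-3p (0.70). miR-15b-5p was most like miR-181a-3p (0.87), miR-30c-5p (0.69) and miR-130c-5p (0.67). Within the family miR-16a and miR-16b gave 0.51, miR-15b-5p and miR-16b 0.36, miR-15a-5p and miR-15b-5p 0.10, and miR-15b-5p and miR-16a -0.33. All these values describe 9 points that share species, run and library composition. The miRNAs outside the family were picked as the highest of 99, which by itself favours high r. Over the 18 libraries their r ran between 0.16 (miR-16b and miR-181a-2-3p) and 0.77 (miR-15b-5p and miR-181a-3p). For miR-16a and miR-130b it was 0.41.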

How the data were processed

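Small RNAs of 18 libraries were prepared with a TruSeq small RNA kit (Illumina), per the labels' protocols. Bowtie (1.0.0 and 1.1.2), bcl2fastq 1.8.3 and CASAVA 1.8.2 were among the tools, per the submitters' processing notes. Which miRNA reference was used, how reads with several matches were treated and which mismatches were tolerated were not given in the sources used here, and 8 species were counted against 1 list, so a species with a differing sequence can lose counts. For each mature miRNA the authors deposited raw counts and RPM values, and RPM equalled the counts divided by the library's total in 100% of values (tolerance 0.001). Read counts per filtering step, per the file headers, gave the reads of 18 to 33 nt. A total line that names no miRNA, equal to the sum of the counts, and 2 columns matching no sample were left out. No sequences or genomic positions of the miRNAs were used here.

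Groups came from the labels. No label states whether replicates were separate clutches, and p-values therefore measure only the spread among these libraries, possibly technical. Replicate libraries differed by more than counting noise and none was treated as a repeat. In R 4.3.3, edgeR 4.0.16 (limma 3.58.1 as its base) was run on the whole count table with filterByExpr, TMM scaling, the quasi-likelihood test and Benjamini-Hochberg adjustment over all miRNAs tested (threshold 0.05), after the script was tested on simulated data. A standard error is the log2 fold change divided by the root of F. CPM in a comparison is TMM-scaled within it and given as a plain mean. Group values scaled over all 18 libraries are means of log2 CPM turned back to CPM. Species were the replicates between annual and non-annual species. The members and lists were chosen with earlier results of these data known. All 9 members are named, with the 3 most alike of the 3 most abundant members (log2 of CPM plus 1, averages of at least 50 CPM), and of each list the 2 most abundant and every called miRNA. Alternatives were library totals, DESeq2's size factors, at least 50 CPM, no filter, TMM without the 10 most abundant miRNAs, DESeq2 1.42.0's Wald test, leaving out each library or species, pool 3 only, run as a covariate, strain MZM0410 only, A. leohoignei counted as annual, the N. furzeri libraries not in diapause in place of those in diapause, other denominators of the family's share and 0.5 added to each arm. For the ratios between members, leaving out libraries, pool 3 only and strain MZM0410 only were chosen after seeing the data. Wilson intervals (95%) and the limit of 3 counts cover counting error only, as PCR copies are not independent molecules.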

Additional observations from a re-analysis of the deposited data

Results flagged for a closer look

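Of 14 groups of values checked for a sample far from the others, 2 held such a sample. Chance flags about 1 in 20 independent groups of normally spread values. These 14 are linked measures of the same libraries of N. furzeri in diapause and A. striatum. The 2 of 14 therefore cannot be set against that rate. miR-15b-5p in N. furzeri diapause replicate 1, the library of strain MZM0403, had 282 RPM, and the nearest of the other 4 libraries had 109.6 RPM, a gap of 0.733 of the group's range against a critical value of 0.71. With TMM scaling over all 18 libraries it did not stand apart, at 160.3 CPM beside 150.3 CPM in replicate 5. Without it, the log2 fold change of miR-15b-5p between diapause and not in diapause was 1.45 in place of 1.61. The log2 ratio of miR-16b to miR-16a in A. striatum replicate 4, of lane 1, was 2.17, and the nearest of the other 3 libraries was at 0.99, a gap of 0.902 of the range against a critical value of 0.829. In the first case the strain differs from the rest of the group, while replicate 2, in lane 1 as well, had 57.0 RPM. In the second case the run differs from the rest of the group. The parts of strain and run were not tested.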

How the results depend on the processing

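No paired analysis was possible because replicate numbers follow sample order alone and so pair no libraries. Between diapause and not in diapause edgeR called 0 miRNAs under each alternative except that DESeq2's Wald test called 4. For N. furzeri not in diapause against A. striatum the 34 calls became 19 with library totals, 17 at 50 CPM or more and between 7 and 44 with a library left out (7 without N. furzeri replicate 1, 12 without replicate 2, 9 without replicate 3 and 18 without A. striatum replicate 1). For N. furzeri in diapause against A. striatum the 59 became 22 with library totals, 38 at 50 CPM or more and 42 to 65 with a library left out. Between annual and non-annual species the 0 calls became 8 with DESeq2 and 0 to 2 with a species left out (2 without A. leohoignei). Signs turned for miR-16b between diapause and not in diapause (0.17 within MZM0410) and between N. furzeri not in diapause and A. striatum, with 0.0035 under DESeq2's size factors, 0.011 with no filter, 0.0036 with DESeq2 and -0.21 to 0.018 with a library left out. They turned for miR-16a between N. furzeri in diapause and A. striatum, with -0.021 under DESeq2's size factors, -0.044 with library totals, -0.11 with TMM without the 10 most abundant miRNAs, -0.048 at 50 CPM or more, -0.021 with DESeq2, -0.16 within pool 3 and -0.25 to 0.22 with a library left out. Between annual and non-annual species miR-16a gave -0.034 under DESeq2's size factors, -0.64 with library totals, -0.0013 with no filter, -0.033 with DESeq2, -0.31 with A. leohoignei as annual and -0.29 to 0.33 with a species left out. The difference in the family's share, in percentage points, was -0.0520 between diapause and not in diapause, -0.140 and -0.192 for N. furzeri not in diapause and in diapause against A. striatum, and -0.577 between annual and non-annual species with the 10 most abundant left out, in place of -0.0063, -0.0299, -0.0362 and -0.207. The shares themselves were larger on that smaller total, at 2.58% in annual and 3.16% in non-annual species in place of 0.137% and 0.344%. The sizes of differences on unlike totals therefore cannot be set against each other. Of all reads the difference was 0.0115 for N. furzeri not in diapause and 0.0015 for N. furzeri in diapause against A. striatum, both with a turned sign, and -0.0149 between annual and non-annual species. With a library left out, diapause against not in diapause ran between -0.0268 and 0.0133, the sign turning without diapause replicate 4. The cause was not tested. Depth limits miR-15a-5p, with 6 to 219 counts a library, and the 5 members near 0.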
